A study of Mus musculus with 7 samples.

Results

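Alpha-fetoprotein (Afp) and 7 other genes known from the fetal liver, together with 2 repressors that act after birth, were followed in the livers of 7 young mice. The 10 genes were Afp, Gpc3, Spink1 (Spink3 in older annotation), Tff3, Bex1, Bex4, Cd24a and Igdcc4, with Zhx2 and Zbtb20 as the repressors. They were read by every array probe whose single gene symbol is one of these names, which gave 18 of the 45281 probes on the array. The exposed group was 3 livers of male C57BL/6J offspring, a common inbred strain, whose dams drank 10% (v/v) ethanol at will, beginning at fertilization and ending at gestational day 8.5. The other group was 4 control livers of the same sex and strain. All 7 animals were 28 days old, and the comparison asks which liver transcripts differ weeks after an exposure that ended in early gestation. Group came from the sample titles, since the treatment text is the same on every sample. The labels do not say what the control dams drank or whether animals of a group were littermates, so p-values measure only the spread between these samples.

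The fetal liver makes proteins that the adult liver hardly makes, and Afp, the fetal relative of albumin, is the best known of them. In mice its transcript falls steeply in the weeks after birth, and Zhx2, a zinc finger and homeobox protein, and Zbtb20, a zinc finger protein of the BTB family, are both needed for that fall. BALB/cJ mice, which carry a natural defect in Zhx2, keep Afp and Gpc3 on in the adult liver, and mice without Zbtb20 in hepatocytes keep Afp on. Several of these genes come back in liver tumours or in regenerating liver. No fetal or newborn liver was among the samples, so the decline itself was not measured here, and the levels at day 28 were.

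The promoters of 3 members are shown because the first is where the repressors are known to act in mice, and the other 2 belong to a pair of paralogs that the arrays read differently. RefSeq (GRCm38.p6) held promoters for 6 of the 10 members, and the 250 bases before the gene start are printed, 5′ to 3′ on the gene's strand. The Afp promoter lies at chr5:90490464-90490713 on the plus strand. In it, capitals mark the letters GTTAAT, the core of the motif of the liver factor HNF1, then a CCAAT box, which reads on the opposite strand, and last, close to the start, the TATA box, spelled TATAAA.
Afp: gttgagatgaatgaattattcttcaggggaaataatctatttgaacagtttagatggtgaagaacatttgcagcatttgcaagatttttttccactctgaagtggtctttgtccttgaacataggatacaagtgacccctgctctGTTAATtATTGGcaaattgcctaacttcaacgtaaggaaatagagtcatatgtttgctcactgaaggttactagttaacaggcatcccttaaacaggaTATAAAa
Searched on both strands of 32851 promoters of the same length, GTTAAT was found in 6.43%, TATAAA in 12.4% and CCAAT in 33.8%. The Afp promoter held 1 match of each, and no 2 of them overlapped. Of the other 5 members, Gpc3 had 1 CCAAT and no other match was found, which says only that these letters were not in those windows.

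The promoters of Bex4 and Bex1 are nearly the same sequence. Bex4 lies at chrX:136138746-136138995 on the plus strand and Bex1 at chrX:136215514-136215763 on the minus strand. Capitals mark the bases at which they differ within the stretch that aligned.
Bex4: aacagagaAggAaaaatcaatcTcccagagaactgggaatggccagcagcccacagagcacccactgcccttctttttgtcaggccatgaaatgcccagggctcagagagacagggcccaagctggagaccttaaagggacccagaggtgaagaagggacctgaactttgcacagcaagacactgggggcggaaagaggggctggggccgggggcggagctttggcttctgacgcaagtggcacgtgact
Bex1: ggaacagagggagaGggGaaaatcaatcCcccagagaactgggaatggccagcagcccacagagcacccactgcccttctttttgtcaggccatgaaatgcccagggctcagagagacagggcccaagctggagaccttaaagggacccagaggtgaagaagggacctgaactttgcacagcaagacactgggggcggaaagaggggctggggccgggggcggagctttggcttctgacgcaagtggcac
Over 240 aligned bases without a gap, 237 were identical (98.8%). The Bex1 window was shifted by 6 bases because the annotated gene starts differ by that much. The alignment was local, so bases at the window ends outside this stretch were not compared, and differences there are not marked.

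The values are deposited array intensities, on a linear scale from which a background had already been subtracted. A signal counted as above background where it exceeded 3 times the noise of its array, a limit between 21.25 and 26.9 intensity units. Between 13951 and 14269 probes were above it in ethanol livers and between 14287 and 15068 in control livers, 2 ranges that do not overlap. The part of this difference between arrays in the values of dim members was not tested. Of the 18 member probes, 10 exceeded it on 3 or more arrays and 7 on none. By gene, 3 members (Afp, Bex1 and Cd24a) were not above background in any animal at any probe. The 7 others were, among them Gpc3, Spink1, Tff3, Bex4 and Igdcc4 of the 8 fetal genes. Without earlier ages, how far any of them had fallen by day 28 was not measured. Gpc3 and Bex4 each also had a probe that was not above background in any animal. A probe without signal thus does not show that a transcript is absent. All 8 hepatocyte markers with a probe were above background, with Ttr at 53392 ± 2280 in ethanol livers and 49164 ± 7461 in control livers. The dimmest was Fgb, at 41.0 ± 8.37 in ethanol livers and 38.4 ± 16.7 in control livers.

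None of the members passed the test. Ethanol livers were compared with control livers in limma over 23829 probes bright enough to be tested, with Benjamini-Hochberg adjustment, and 13 member probes of 9 genes were among them. At an adjusted p under 0.05, 0 member probes were called, where 0.021% of all tested probes were. Adjusted p-values of the members ran from 0.427 to 0.997. At an unadjusted p under 0.05 there were 6 member probes, 2 higher and 4 lower in ethanol livers. Over all tested probes 4.12% were past it as higher and 4.67% as lower. Those 6 probes belong to only 4 genes (Gpc3, Bex4, Zhx2 and Zbtb20), and 2 probes of 1 gene cannot be taken as independent. Zhx2 and 1 of the 2 Zbtb20 probes had higher values in ethanol livers, and Gpc3 and Bex4 lower values at 2 probes each.

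**Figure D1:**
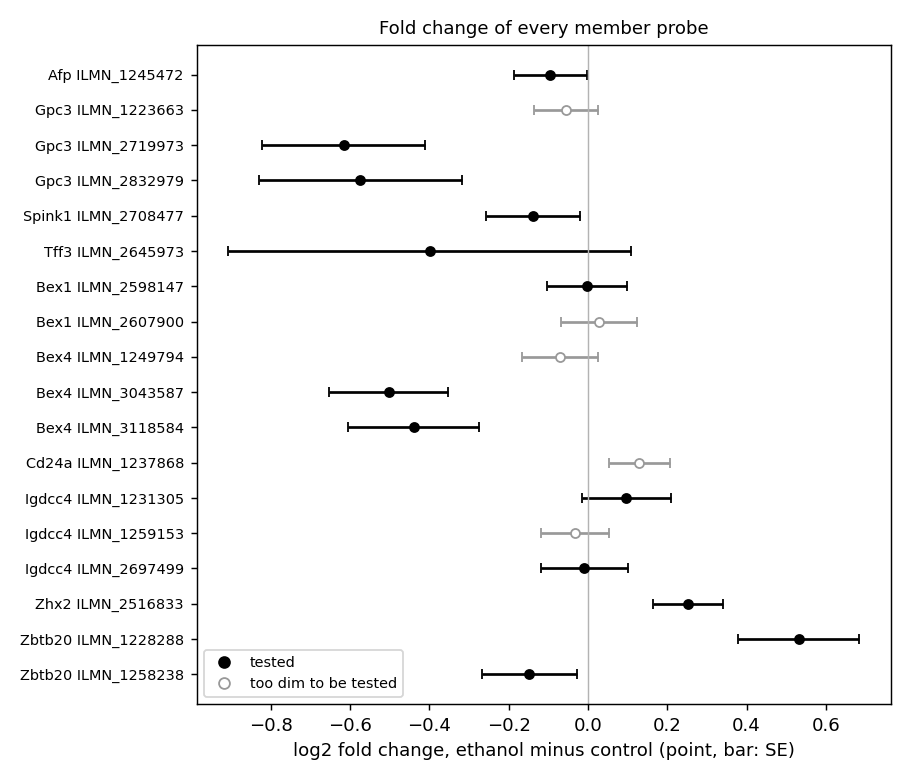
Log2 fold change (x axis, ethanol minus control, on the offset log2 scale) of the 18 member probes, with bars of 1 SE from 3 ethanol and 4 control livers. Filled points are the 13 tested probes and open points the 5 too dim to be tested; the probes farthest from 0 belong to Gpc3, Zbtb20 and Bex4.

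Zhx2 was dim, and its groups did not overlap. Its single probe, ILMN_2516833, had intensities of 32.1, 42.2 and 49.5 in ethanol livers, against 18.6, 26.9, 27.0 and 21.1 in control livers. All 3 ethanol animals were above every control animal. The probe was above background in 3 of 3 ethanol and 2 of 4 control livers. The means were 41.3 ± 8.75 in ethanol livers (SD, n = 3) and 23.4 ± 4.21 in control livers (SD, n = 4). The log2 fold change was 0.25 ± 0.09 (SE; adjusted p 0.480 in limma). With 50 units added before taking logs, differences of dim probes are compressed on this scale. The control mean lay below the background limits of control 2, control 3 and control 4, so no ratio of intensities is given.

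Zbtb20, the second repressor, was read by 2 probes that pointed in opposite directions. At ILMN_1228288 the intensities were 397.8, 383.0 and 602.1 in ethanol livers, against 243.7, 271.7, 324.0 and 347.4 in control livers. Again every ethanol animal was above every control animal, and ethanol 3 stood highest. The means were 461 ± 122 in ethanol livers (SD, n = 3) and 297 ± 47.4 in control livers (SD, n = 4), which gave a log2 fold change of 0.53 ± 0.15 (adjusted p 0.427 in limma). Without ethanol 3 the fold change was 0.34.

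The other Zbtb20 probe, ILMN_1258238, had 42.4, 32.5 and 23.4 in ethanol livers, against 38.7, 25.3, 61.5 and 52.6 in control livers. There the groups overlapped, 2 of 3 ethanol and 4 of 4 control livers were above background, and the log2 fold change was -0.15 ± 0.12 (adjusted p 0.775 in limma). It was -0.08 without control 3 and -0.23 without control 2. The annotation ties the 2 probes to different cDNA sequences of the gene, and which transcripts each one reads was not tested. Of the 13 tested member probes, Zhx2 and the first Zbtb20 probe were the 2 whose groups did not overlap in the higher direction, and 0 did so in the lower. Over all tested probes 4.12% did so in the higher direction and 4.6% in the lower. That is 15.4% of the tested member probes, but the members were chosen with earlier results of these data known, so nothing particular to them is read from it.

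**Figure D2:**
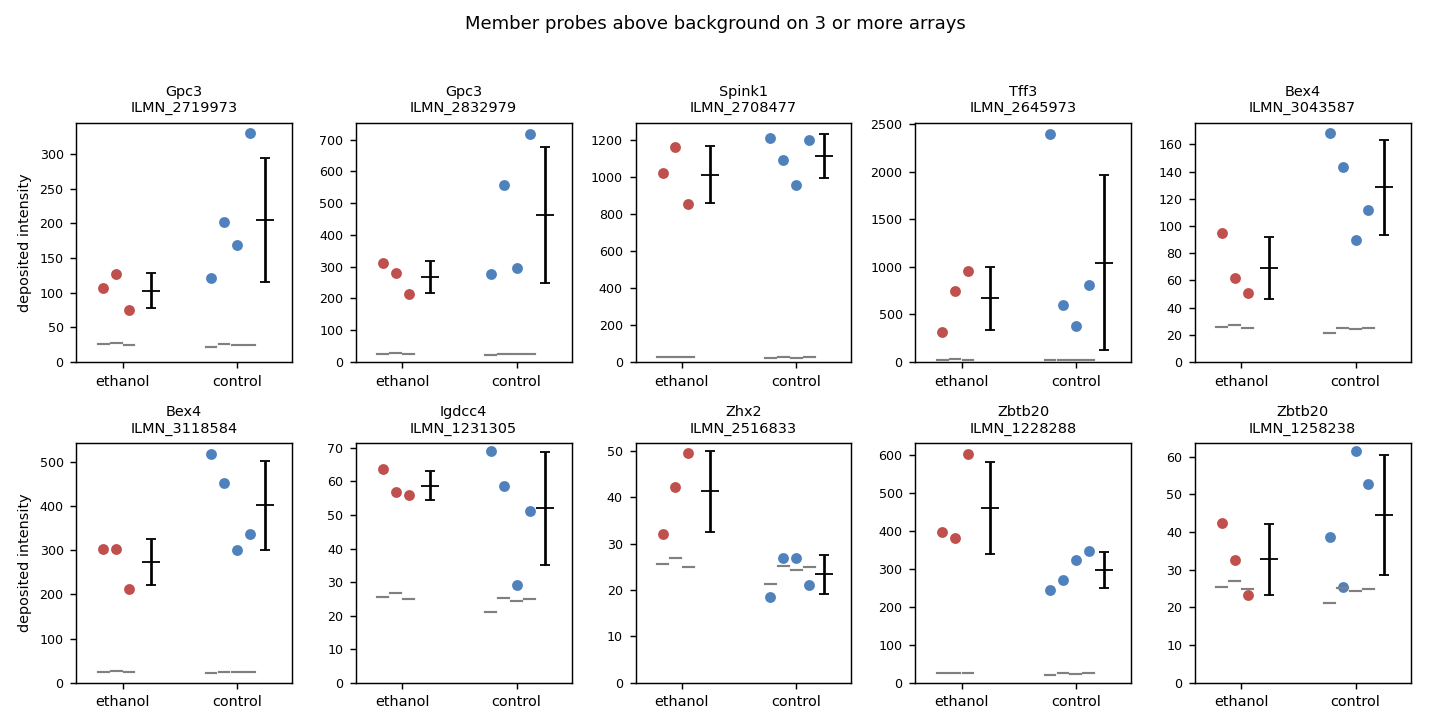
Deposited intensity (y axis, linear, from 0) of the 10 member probes above background on 3 or more arrays. Points are animals (ethanol 1 to 3 and control 1 to 4, left to right), black marks the mean and SD, and grey ticks each array's background limit; the ethanol points of Zhx2 and of Zbtb20 at ILMN_1228288 lie above all control points.

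Gpc3 encodes glypican 3, a heparan sulfate proteoglycan of the cell surface that is high in fetal liver and in hepatocellular carcinoma. It was above background in all 7 livers at 2 of its 3 probes. ILMN_2832979 had 311.8, 279.8 and 212.7 in ethanol livers, against 277.0, 556.7, 295.5 and 718.8 in control livers. The groups overlapped: control 1 and control 3 lay among the ethanol animals, and control 2 and control 4 were far above them.

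The second Gpc3 probe, ILMN_2719973, gave a similar picture. It had 106.6, 126.6 and 75.5 in ethanol livers, against 120.8, 202.1, 168.6 and 329.7 in control livers. Control 4 was again the highest animal, and only control 1 lay within the ethanol range. The log2 fold change was -0.62 ± 0.21 at this probe (adjusted p 0.469 in limma) and -0.57 ± 0.26 at ILMN_2832979 (adjusted p 0.556 in limma). Without control 4 these were -0.42 and -0.35. The ratio of highest to lowest animal was 1.47 among ethanol livers and 2.59 among control livers at ILMN_2832979. At ILMN_2719973 it was 1.68 among ethanol livers and 2.73 among control livers. The third probe, ILMN_1223663, was not above background in any animal (-14.4 ± 3.44 in ethanol livers and -10.9 ± 2.98 in control livers).

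Bex4, an X-linked gene of the brain expressed family of small intracellular adaptor proteins, also had lower values in ethanol livers, at 2 of its 3 probes with an unadjusted p under 0.05. ILMN_3118584 had 303.2, 302.8 and 212.0 in ethanol livers, against 516.2, 451.1, 299.4 and 336.7 in control livers. Control 3 fell just below the 2 higher ethanol animals, and the other 3 control animals were above all ethanol animals. ILMN_3043587 had 94.9, 61.9 and 50.7 in ethanol livers, against 168.6, 143.4, 89.6 and 111.7 in control livers. The order was alike, with control 3 under ethanol 1 and ethanol 3 lowest at both probes. The log2 fold change was -0.44 ± 0.17 at ILMN_3118584 (adjusted p 0.509 in limma) and -0.50 ± 0.15 at ILMN_3043587 (adjusted p 0.429 in limma). The third Bex4 probe, ILMN_1249794, was not above background in any animal.

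The paralog Bex1 was not above background at either of its probes. ILMN_2598147 had 0.639, 14.6 and -1.44 in ethanol livers, against 2.93, 6.40, 9.98 and -0.621 in control livers, with a log2 fold change of 0.00 ± 0.10. ILMN_2607900 had -6.22 ± 1.63 in ethanol livers and -6.24 ± 6.88 in control livers. So Bex4 was detected and Bex1 was not, although the 250 bases before the gene starts printed above differ at 3 of the aligned positions. Probe sequences were not used here, so whether the Bex4 probes also bind Bex1 transcripts was not tested.

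The animal that stood highest differed from gene to gene. Control 4 was highest for Gpc3 at both detected probes (0.59 and 0.66 above the control mean on the log2 scale), and control 1 for Bex4 (0.29 and 0.36). In ethanol 3, Gpc3 and Bex4 were each at their lowest of the 7 animals, at -0.84, -0.81, -0.69 and -0.69 relative to the control mean. Spink1 was also lowest in ethanol 3 (-0.33), while Tff3 was above the control mean there (0.21). The same animal had the highest Zhx2 (0.37) and the highest Zbtb20 at ILMN_1228288 (0.92), but the lowest Zbtb20 at ILMN_1258238 (-0.28).

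**Figure D3:**
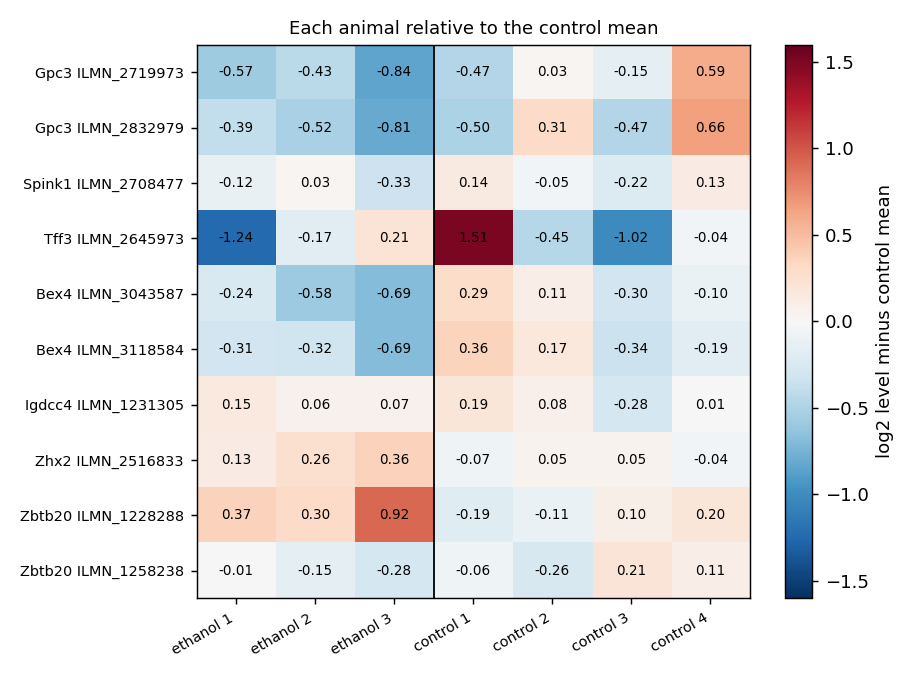
Log2 level of the 10 detected member probes (rows) in each animal (columns), minus the control mean of that probe; red is higher and blue lower. Ethanol 3 holds the lowest Gpc3, Bex4 and Spink1, the highest Zhx2, and the highest Zbtb20 at ILMN_1228288 but the lowest at ILMN_1258238. Control 1 holds the highest Tff3 (1.51).

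In bulk liver, fewer cells of a type and less RNA per cell cannot be told apart, so other cell types were read beside these values. Over all tested genes, 6326 had higher and 6443 lower values in ethanol livers. Of 15 tested stellate and endothelial marker genes, 12 had lower and 3 higher values after ethanol (median -0.08 on the log2 scale), and 0 passed the test. Pdgfrb and Kdr, both among the lower, were not above background in any animal. Their summed intensity was 16640 to 19850 in ethanol livers and 19000 to 23740 in control livers. Among them Lyve1, a hyaluronan receptor of sinusoidal endothelium, had 208 ± 30.1 in ethanol livers and 295 ± 46.6 in control livers (log2 fold change -0.39 ± 0.12, adjusted p 0.449 in limma). Col3a1, a fibrillar collagen, had 78.1 ± 10.3 in ethanol livers and 112 ± 16.2 in control livers, without overlap (-0.29 ± 0.10, adjusted p 0.472 in limma). Lrat, the retinol esterifying enzyme of stellate cells, had 34.6 ± 25.8 in ethanol livers and 213 ± 185 in control livers (log2 fold change -1.19 ± 0.46, adjusted p 0.518 in limma). Of 10 tested Kupffer cell markers 10 were higher (median 0.20, 0 past the test), with summed intensities of 6820 to 11000 in ethanol livers and 7193 to 8162 in control livers. Of these Folr2, a folate receptor of macrophages, had 374 ± 80.9 in ethanol livers and 253 ± 47.9 in control livers, without overlap (0.45 ± 0.14, adjusted p 0.446 in limma), and C1qb, a complement subunit, 1349 ± 307 in ethanol livers and 963 ± 97.9 in control livers. Of 5 mesothelial markers with a probe, 1 (Upk3b) was above background in any animal, with summed intensities of 105.9 to 151.9 in ethanol livers and 83.4 to 127.3 in control livers. The part of these cells in the values of Gpc3, Bex4, Zhx2 and Zbtb20 was not tested.

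Tff3, a small secreted trefoil peptide best known from mucus-producing epithelia, varied more between animals than any other member. Its probe ILMN_2645973 had 311.2, 745.1 and 959.2 in ethanol livers, against 2397.3, 598.1, 381.1 and 805.5 in control livers. Control 1 was far above all other animals, and the remaining animals of the 2 groups were mixed. The highest animal exceeded the lowest 3.08-fold among ethanol livers and 6.29-fold among control livers. The SD within groups was 0.965 on the log2 scale, larger than that of 99.8% of tested probes, whose median was 0.13. The log2 fold change of -0.40 ± 0.51 (adjusted p 0.865 in limma) had a 95% interval from -1.52 to 0.72, so these arrays leave a wide range of differences possible. Without control 1 it was 0.10 and without ethanol 1 it was 0.02.

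Most markers of epithelia that make Tff3 were not above background. The bile duct genes Krt19, Epcam and Cftr and the intestinal genes Muc2 and Fcgbp were not above background in any animal. Sox9, a transcription factor of bile duct cells, was above it in all 7, at 390 ± 128 in ethanol livers and 351 ± 215 in control livers. Muc1, a membrane mucin, was above it in 2 of 3 ethanol and 3 of 4 control livers, and the keratin gene Krt7 in 0 of 3 ethanol and 2 of 4 control livers. Cldn4, a tight junction gene, was not above background in any animal. The summed intensity of the cholangiocyte markers, most of it Sox9, was 340.8 to 619.3 in ethanol livers and 295.8 to 746.0 in control livers, and 3 of the 8 genes with a probe were above background in any animal. Of the 8 intestinal markers 1 (Cdx1) was above background in any animal, and their sum was 36.2 to 53.1 in ethanol livers and 37.1 to 91.6 in control livers. The part of these cells in the Tff3 values was not tested.

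Spink1, a secreted trypsin inhibitor of the Kazal type known from the pancreas, was bright in all 7 livers. ILMN_2708477 had 1026.2, 1163.4 and 856.3 in ethanol livers, against 1213.6, 1096.8, 956.4 and 1200.6 in control livers. The groups overlapped, and the highest animal exceeded the lowest 1.36-fold among ethanol livers and 1.27-fold among control livers. Its log2 fold change was -0.14 ± 0.12 (adjusted p 0.789 in limma) with a 95% interval from -0.40 to 0.12. It was -0.04 without ethanol 3 and -0.22 without ethanol 2. The SD within groups was 0.175 on the log2 scale, larger than that of 76.2% of tested probes. Of the acinar enzyme genes, Cela1, an elastase, had 1027 ± 313 in ethanol livers and 625 ± 109 in control livers (log2 fold change 0.63 ± 0.19, adjusted p 0.443 in limma). Cela2a had 192 ± 47.6 in ethanol livers and 219 ± 38.7 in control livers, and Pnliprp1, a lipase relative, 103 ± 44.9 in ethanol livers and 129 ± 51.0 in control livers. These 3 were above background in all 7 livers, while Prss2, Ctrb1, Cpa1 and Cel were not in any, and the colipase gene Clps was in 0 of 3 ethanol and 1 of 4 control livers. Amy2a5, whose sequence is close to that of the amylase made in liver, was bright in both groups (10711 ± 994 in ethanol livers and 11318 ± 921 in control livers). The summed acinar markers, of which 8 of 13 were above background in any animal, came to 10940 to 13500 in ethanol livers and 11440 to 13650 in control livers, most of it Amy2a5. The part of such cells in the Spink1 values was not tested.

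Afp itself was not above background in any liver. Its probe ILMN_1245472 had 2.61, 2.32 and 8.63 in ethanol livers, against 19.5, 2.79, 7.46 and 9.30 in control livers. Control 1 came closest to its limit of 21.25. The log2 fold change of -0.09 ± 0.09 (adjusted p 0.817 in limma) is between values without a measured level in either group, and no fold is given.

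Cd24a, a lipid-anchored surface protein of progenitors, bile duct cells and B cells, was not above background either. ILMN_1237868 had -1.32, 2.17 and -0.949 in ethanol livers, against -7.09, -4.94, -2.37 and -8.41 in control livers. The values did not overlap, but all lay around 0, so they carry no level. It was too dim to be tested.

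Igdcc4, a surface protein of the immunoglobulin family known in mice as a marker of fetal liver progenitors, was seen at 1 of its 3 probes. ILMN_1231305 had 63.6, 56.8 and 55.9 in ethanol livers, against 68.9, 58.7, 29.3 and 51.3 in control livers. The ethanol values lay inside the control range, and the log2 fold change was 0.10 ± 0.11 (adjusted p 0.851 in limma). It was 0.00 without control 3, the lowest animal, and 0.16 without control 1, the highest. ILMN_2697499 was above background only in control 1, at 30.9, and ILMN_1259153 in no animal.

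**Figure D4:**
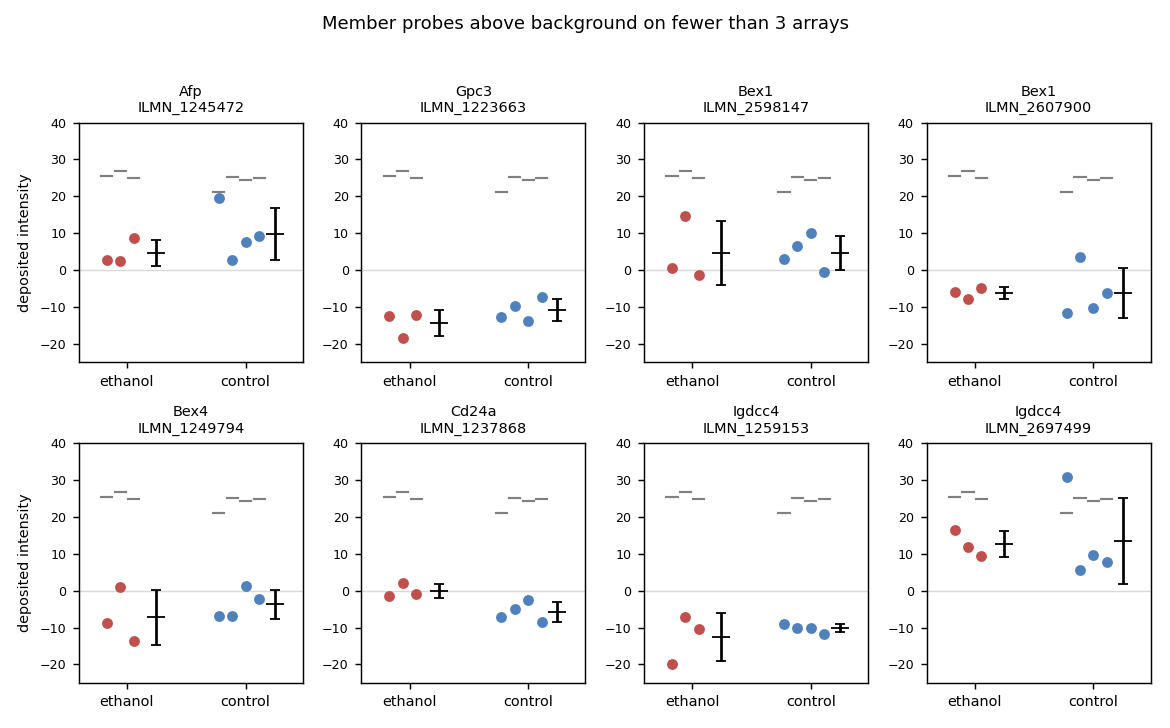
Deposited intensity (y axis, linear) of the 8 member probes above background on fewer than 3 arrays, drawn as in the plot of detected probes. Grey ticks are the background limits; only control 1 at Igdcc4 ILMN_2697499 exceeds its limit.

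The fold changes of Zhx2 and of Zbtb20 at ILMN_1228288 kept their direction whichever animal was left out. Because their groups did not overlap, leaving out 1 animal could hardly reverse it, so only the size is read. These fold changes ran from 0.20 to 0.31 for Zhx2 and from 0.34 to 0.64 for Zbtb20. For Gpc3 they ran from -0.77 to -0.42 at ILMN_2719973 and from -0.74 to -0.35 at ILMN_2832979, with the value nearest 0 in each case without control 4. For Bex4 they ran from -0.63 to -0.41 at ILMN_3043587 and from -0.55 to -0.31 at ILMN_3118584. For Tff3 the range crossed 0.

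**Figure D5:**
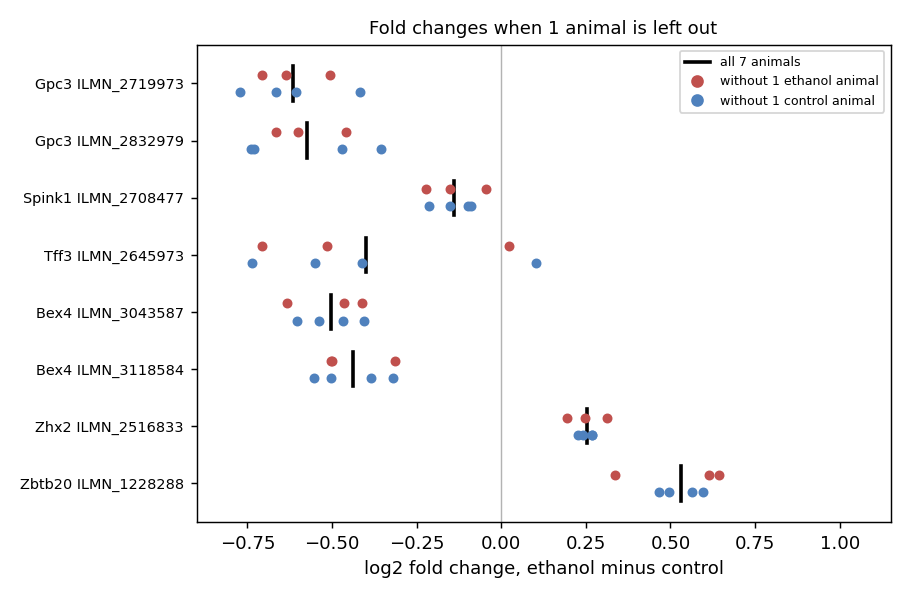
Log2 fold change (x axis, ethanol minus control) of 8 member probes with all 7 animals (black bar) and with 1 ethanol (red) or 1 control (blue) animal left out. Gpc3, Bex4, Zhx2 and Zbtb20 stay on 1 side of 0, and Tff3 crosses it. For Zhx2 and Zbtb20, whose groups do not overlap, this could hardly be otherwise.

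Other genes of the fetal programme were counted from lists. Among 12769 tested genes, each by its brightest tested probe, 0.0313% passed the test, and their median log2 fold change was -0.00141. Of 20 oncofetal and hepatoblast genes 18 had a probe, 9 were above background in at least 1 animal and 14 were tested. Of those 14, 2 were higher and 12 lower, with a median of -0.10 and 0 past the test. Over all 12769 tested genes 6326 were higher and 6443 lower. Dlk1, Igf2bp1, Lin28b and Sox11, among the lower, and Prom1, among the higher, were not above background in any animal. Peg3, a paternally expressed zinc finger gene, had 47.3 ± 19.6 in ethanol livers and 120 ± 40.7 in control livers (adjusted p 0.392 in limma). Cdkn1c, a cell cycle inhibitor, had 517 ± 191 in ethanol livers and 799 ± 143 in control livers, and Igf2, the fetal growth factor, had 51.2 ± 8.31 in ethanol livers and 122.8 ± 79.7 in control livers. As with Gpc3, the control spread of Igf2 was wider than the ethanol spread.

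Of the partners and relatives of Zhx2, 4 of 5 were tested, 2 higher and 2 lower. Zhx1 had a log2 fold change of 0.00 ± 0.08 and Zhx3 of -0.01 ± 0.12. Of the subunits of NF-Y, the CCAAT-binding factor that ZHX proteins bind, Nfyb had -0.28 ± 0.10 and Nfyc 0.09 ± 0.08, while Nfya was not above background in any animal. None passed the test, and the lowest adjusted p was 0.509 in limma.

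Genes reported to respond to Zhx2 in mouse liver went both ways. The list does not hold the direction in which each is reported to respond, so nothing about Zhx2 is read from this. Cyp4a12a, a male-biased fatty acid hydroxylase, was the 1 of 4 tested that passed. It had 3911 ± 3392 in ethanol livers and 52.8 ± 46.3 in control livers, without overlap (adjusted p 0.0394 in limma). Without control 1, control 3 or control 4, 0 of all tested probes passed, so this call was lost. It was also lost with all animals kept, for probes above background only, without normexp, or without moderation of variances, where 0 passed. Lpl, the lipoprotein lipase, was bright in 3 of 3 ethanol and 4 of 4 control livers. It had 7642 ± 478 in ethanol livers and 11216 ± 2824 in control livers, without overlap (log2 fold change -0.54 ± 0.17, adjusted p 0.456 in limma). Mup20, a urinary pheromone protein, had 2.67 ± 0.50 on the log2 scale, without overlap. Cyp2a4, a female-biased steroid hydroxylase, had -1.07 ± 0.45, and its groups overlapped. Elovl3, a fatty acid elongase, was above background in 1 of 3 ethanol and 0 of 4 control livers.

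Of 14 factors that activate Afp or build the liver, 11 were tested, 5 were higher and 6 lower, and 0 passed. Nr5a2, a nuclear receptor that binds the Afp promoter, had 162 ± 26.8 in ethanol livers and 315 ± 85.5 in control livers, without overlap (log2 fold change -0.71 ± 0.16, adjusted p 0.336 in limma). Foxa1 had 0.24 ± 0.19 and Cebpb 0.41 ± 0.35 on the log2 scale. In the albumin family, Alb had -0.02 ± 0.15, with 459 ± 76.4 in ethanol livers and 475 ± 102 in control livers. These Alb levels were far below those of Ttr, and how well the probe reads albumin was not tested. Afm, afamin, had -0.21 ± 0.09, with 2152 ± 100.2 in ethanol livers and 2495 ± 226 in control livers, without overlap, and neither gene passed.

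Of 14 family relatives of the members, 6 were tested and 0 passed. Tff2, a trefoil peptide like Tff3, had -0.38 ± 0.29 and Bex3 -0.17 ± 0.17 on the log2 scale. Gpc6 had 13.7 ± 2.16 in ethanol livers and 20.8 ± 4.37 in control livers, without overlap. It was above background in only 0 of 3 ethanol and 1 of 4 control livers. Of 9 tested genes that the liver switches on around or after birth, 6 were higher and 3 lower (median 0.07), and 0 passed. Tat, among the higher, was not above background in any animal. Cyp2f2, a periportal P450, had 16365 ± 3806 in ethanol livers and 11542 ± 1558 in control livers, without overlap (0.44 ± 0.15, adjusted p 0.465 in limma). Slc10a1, the bile acid uptake transporter, had -0.20 ± 0.11 and Hpd, a tyrosine breakdown enzyme, -0.14 ± 0.10 on the log2 scale.

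Erythroid cells fill the fetal liver, and of 12 erythroid genes with a probe, 7 were above background in any animal. The embryonic globins gave little signal. Hbb-y and Hba-x were not above background in any animal, and Hbb-bh1 in 0 of 3 ethanol and 2 of 4 control livers. Alas2, the erythroid enzyme of heme synthesis, had 1136 ± 414 in ethanol livers and 676 ± 100.3 in control livers (0.65 ± 0.21, adjusted p 0.465 in limma). Of 7 tested erythroid genes 5 were higher and 2 lower, and 0 passed. The summed intensity of the list was 2070 to 2227 in ethanol livers and 1465 to 1746 in control livers, with Alas2 its brightest gene. The other higher genes, Klf1, Tfrc, Kit and Slc4a1, had 0.06 to 0.11 on the log2 scale. Like Alas2, they were above background in 3 of 3 ethanol and 4 of 4 control livers. The lower ones were Epor at -0.01 and Hbb-bh1 at -0.26. Of 9 tested proliferation genes 4 were higher and 5 lower (median -0.01), with Mcm3 at 0.21 ± 0.10 and the others nearer 0, and 0 passed. Of the 5 tested B cell markers, which bear on Cd24a, 0 passed, and 1 of the 6 with a probe, Cd79b, was above background in any animal.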

How the data were processed

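Liver RNA of 7 mice was read on 7 Illumina arrays, 1 per sample. The deposited intensities are linear. GenomeStudio is named per the submitters' processing notes, and its version, background correction and scaling are not given in the sources used here. A second deposited table was not used, because its 14 value columns carry names that match no sample label. Intensities were corrected with normexp at an offset of 50, put on the log2 scale and quantile normalized in limma 3.58.1 (R 4.3.3). A probe was tested where it exceeded the array median on at least 3 arrays, and 5 member probes failed this and have no test. Their fold changes come from a fit of all probes. Ethanol was compared with control by lmFit and eBayes, two-sided, with adjustment over 23829 probes at a threshold of 0.05. The limit for above background is 3 times the root mean square of an array's negative values. Symbols were updated through Entrez IDs with RefSeq (GRCm38.p6), which matched 34807 of 34885 probes with 1 symbol, while 18 had several and 10378 none. Every member probe is named, as are, per list, the genes past the threshold, up to 3 others with the largest moderated statistic, and all genes of short lists. Further markers of other cells, and hepatocyte markers, were named after their values were seen. Genes in a list use their brightest tested probe. The members and lists were chosen with earlier results of these data known. The model was tested on simulated data. With 7 arrays, precision is limited throughout by their number.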

Additional observations from a re-analysis of the deposited data

How the results depend on the processing

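In every alternative, runs without 1 animal included, 0 member probes passed the threshold in limma, while between 2 and 6 had an unadjusted p under 0.05. Gpc3, Bex4, Zhx2 and Zbtb20 at ILMN_1228288 kept their direction at their detected probes in all 17 alternatives. For Zhx2 and Zbtb20 at ILMN_1228288, whose groups did not overlap, runs without 1 animal could hardly turn it. Among tested member probes, log2 fold changes without 1 animal crossed 0 for Tff3 (-0.737 to 0.104), Bex1 at ILMN_2598147 (-0.0965 to 0.0550) and Igdcc4 at ILMN_2697499 (-0.0530 to 0.0852), and among those too dim to be tested, for Bex1 at ILMN_2607900, Bex4 at ILMN_1249794 and Igdcc4 at ILMN_1259153. Without quantile normalization Bex1 at ILMN_2598147 turned to 0.0233 and Igdcc4 at ILMN_2697499 to 0.0176. With array weights Igdcc4 at ILMN_2697499 turned to 0.00702. Without normexp, at a floor of 16, Zhx2 had a log2 fold change of 0.82 and Bex4 at ILMN_3043587 of -0.90, and with normexp at an offset of 16 they had 0.38 and -0.64. With a limit of 5 times the noise, 9 member probes exceeded it on 3 or more arrays, and with 2 times, 10.

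The count of 5 probes past the threshold was 8 without a filter on dim probes, 3 at an offset of 16 and 1 with trended and robust variances. It was 0 for probes above background only, without normexp and without moderation, where 1495, 1528 and 1847 probes had an unadjusted p under 0.05. Without 1 animal it ran from 0 to 27. Probes whose groups do not overlap numbered 2076, 3346 without a filter and 2853 to 4550 without 1 animal, as fewer animals overlap less often. The replicate numbers shared by the groups are not stated to pair animals. Deviations of same-numbered animals correlated at -0.191, 0.0854 and 0.203, 1 of 3 ethanol animals correlated best with its own number, and a fit with the replicate block gave 24 probes and 0 member probes. The cause of these shifts was not tested. Dim members such as Afp, Bex1, Cd24a and Zhx2 are limited by signal over background.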
